A study of Mus musculus with 6 samples.

Results

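Peaks of the transcription factor Arid3a were examined at 10 genes of the Kruppel-like factor (Klf) family in mouse vascular smooth muscle cells: Klf2, Klf3, Klf4, Klf5, Klf6, Klf9, Klf10, Klf12, Klf13 and Klf15. A peak region belonged to a gene when it overlapped the gene body or the 10 kb on either side of it. After merging the peaks of all libraries, 67 of 79295 regions met this rule, and each of the 10 genes had at least 2 of them. The rule used gene positions and no measured value.

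The assay was CUT&Tag, in which an antibody, here against Arid3a, brings a transposase to chromatin and the DNA cut around the protein is sequenced. Primary mouse vascular smooth muscle cells received either a negative control siRNA (3 libraries, called NC-labelled) or an siRNA against Arid3a, numbered 1, 2 and 3 (1 library each, called siRNA-labelled). All libraries came from 1 commercial primary cell product and were described with transfection for 24 h and about 10000 cells per assay. The labels describe 36 h of angiotensin II at 1e-07 mol/L as a model of abdominal aortic aneurysm without saying which libraries received it. Genotype, age and separate cultures were not given in the sources used here. A p-value thus reflects no more than the spread among these libraries, which may be technical. With 1 library per numbered siRNA, differences between siRNAs and between libraries cannot be told apart in the siRNA-labelled group. The assay holds no transcript levels and does not check the knockdown. Peak names inside each of the 6 lists give the opposite group, with the replicate number unchanged. Groups below follow the sample labels, and every direction between groups would be the opposite under the peak names.

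Kruppel-like factors are zinc finger proteins that bind GC-rich and CACCC sequences in promoters and enhancers. Some members recruit acetyltransferases and activate genes, others recruit the CtBP or Sin3 corepressors. In vascular smooth muscle, Klf4 is known for silencing contractile genes when cells leave the contractile state, Klf5 for promoting growth and remodelling, and Klf15 for restraining them.

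The lists held 43834 to 51682 peaks each. The fragments at each summit and the local background were solved from the deposited fold and p-value of every peak, as total reads were not used here. Background was lower with the siRNA label, at 0.475 to 0.538 fragments against 0.621 to 0.673, so the groups also differed in coverage, and the part of coverage in the results below was not tested. Peaks within 1 kb of a gene end were present for 4 to 5 of 7 smooth muscle, 0 to 2 of 6 endothelial, 1 to 2 of 6 macrophage and 1 to 2 of 5 fibroblast marker genes. Of the smooth muscle markers, Acta2, Tagln, Smtn and Lmod1 had such a peak in all 6 libraries and Myh11 and Des in none. Such peaks are not expression, and without a library lacking the antibody the regions are not shown to be Arid3a binding.

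Promoter sequence was at hand for 8 of the 10 genes, from RefSeq (GRCm38.p6, the assembly of mm10), as the 250 bases before the transcription start. Klf5 and Klf10 had no entry. A peak of every library lay over 6 of the 8 windows, against 27.1% of all 32851 promoter windows, and over Klf12 and Klf15 there was none in any library. Of the 6 windows with a peak, 4 are shown beside the pair without one. The Klf3 and Klf9 windows are left out. Klf9 had the lowest GC content of the 6 (59.6%) and no GC box GGGCGG, unlike the 4 shown. The Klf12 entry starts inside the gene, and the gene's higher-coordinate end, the 5′ end on its strand, did have a peak in every library. Capitals mark every match, on either strand, to the AT-rich letters ATCAAA, the related letters ATTAAA, the GC box GGGCGG and the CACCC element CCACCC. They also mark every match, on either strand, to the CCAAT box, the TATA box TATAAA and a fixed spelling of the MEF2 element. Other spellings of the MEF2 element were not searched or marked. Sequences run 5′ to 3′ along the gene.
Klf13, chr7:63938916-63939165, minus strand: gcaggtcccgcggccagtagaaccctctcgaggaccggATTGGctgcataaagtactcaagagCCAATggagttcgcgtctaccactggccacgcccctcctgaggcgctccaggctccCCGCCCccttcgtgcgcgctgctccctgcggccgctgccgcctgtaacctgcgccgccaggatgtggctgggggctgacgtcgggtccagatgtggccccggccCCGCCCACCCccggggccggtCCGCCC
Klf2, chr8:72318812-72319061, plus strand: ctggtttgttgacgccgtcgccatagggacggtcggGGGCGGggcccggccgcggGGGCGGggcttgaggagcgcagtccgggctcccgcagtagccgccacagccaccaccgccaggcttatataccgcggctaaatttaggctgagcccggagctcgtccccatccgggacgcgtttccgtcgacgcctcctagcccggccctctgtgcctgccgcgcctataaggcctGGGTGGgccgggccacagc
Klf4, chr4:55532476-55532725, minus strand: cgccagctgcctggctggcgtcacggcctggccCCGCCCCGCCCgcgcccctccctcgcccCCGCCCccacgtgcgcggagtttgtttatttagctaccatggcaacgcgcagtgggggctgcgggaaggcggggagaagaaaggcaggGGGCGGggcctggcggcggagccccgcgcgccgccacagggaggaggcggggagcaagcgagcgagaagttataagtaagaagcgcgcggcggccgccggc
Klf6, chr13:5861239-5861488, plus strand: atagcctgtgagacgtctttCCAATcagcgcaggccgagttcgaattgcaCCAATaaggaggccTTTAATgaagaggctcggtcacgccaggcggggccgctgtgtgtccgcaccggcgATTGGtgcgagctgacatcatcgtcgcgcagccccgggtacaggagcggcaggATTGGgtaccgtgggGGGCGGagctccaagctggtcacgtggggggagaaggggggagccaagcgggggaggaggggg
Klf12, chr14:100149797-100150046, minus strand: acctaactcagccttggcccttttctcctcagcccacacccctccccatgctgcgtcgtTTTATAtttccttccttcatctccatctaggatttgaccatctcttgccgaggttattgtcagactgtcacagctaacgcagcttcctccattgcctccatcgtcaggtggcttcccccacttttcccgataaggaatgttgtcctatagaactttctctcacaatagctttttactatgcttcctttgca
Klf15, chr6:90462326-90462575, plus strand: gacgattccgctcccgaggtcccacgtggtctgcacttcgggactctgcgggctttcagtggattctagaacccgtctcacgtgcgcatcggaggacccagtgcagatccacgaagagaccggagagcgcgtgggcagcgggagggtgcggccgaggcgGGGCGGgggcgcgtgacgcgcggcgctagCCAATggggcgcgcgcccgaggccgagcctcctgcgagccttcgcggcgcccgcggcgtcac

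The windows with a peak in all 6 libraries had a GC content of 59.6 to 78.4% and held 18 to 32 CG dinucleotides. Klf15, with no peak there, had 72.0% GC and 37 CG, while Klf12, also without one, had 48.0% GC and 6 CG. Over all promoters the median GC content was 62.0% in windows with a peak in every library and 48.0% in windows without one. Klf12 thus lay at the median of the unoccupied windows and Klf15 far above it. GGGCGG, read on either strand, was found in 6 of the 8 windows, against 32.7% of all windows, with 6 matches at Klf3, 4 at Klf4, 3 at Klf13, 2 at Klf2 and 1 each at Klf6 and Klf15. At Klf13 a match to GGGCGG shares bases with one to CCACCC. The CACCC element was in 3 of 8 (28.1% of all), CCAAT in 4 of 8 (33.8%) and TATAAA in 1 of 8 (12.4%). The fixed MEF2 spelling was in 0 of 8 (0.14%). Whether the windows hold the MEF2 element in another spelling was not tested. ATTAAA was found only at Klf6 among the 8 (12.7% of all windows) and ATCAAA in none (10.6%).

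**Figure D1:**
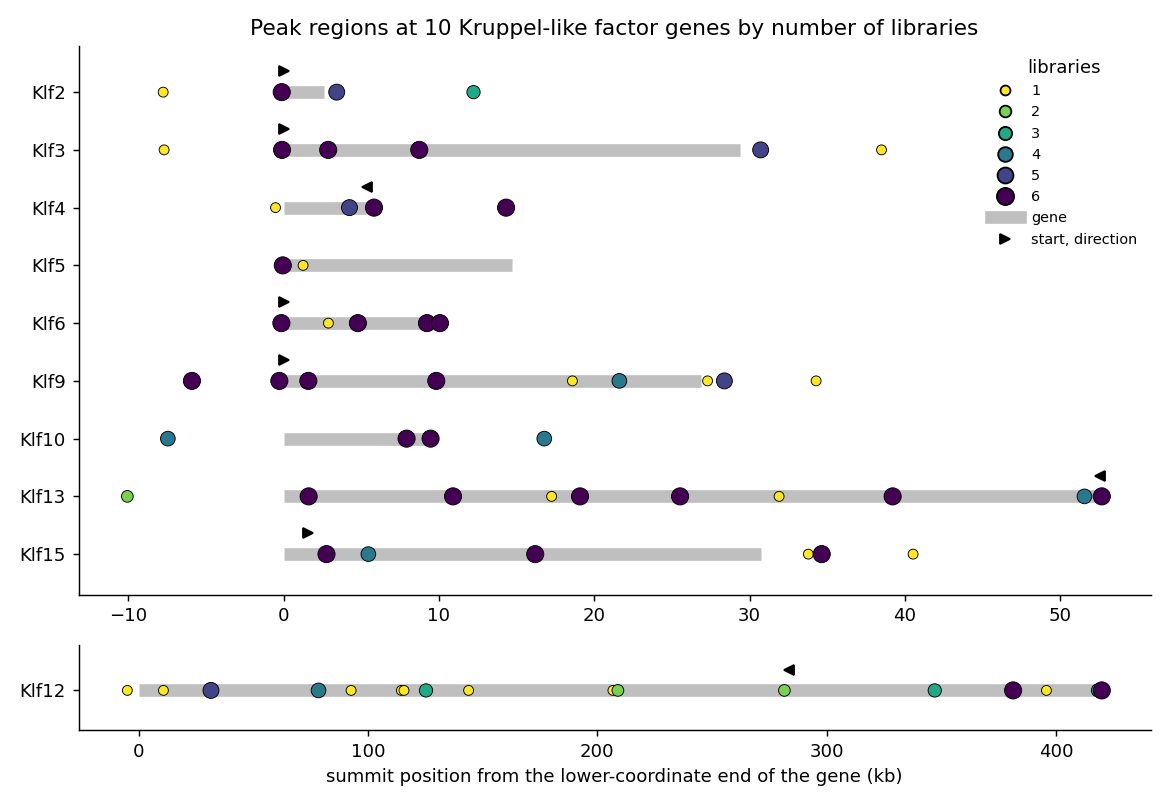
Summit position of each of the 67 regions, in kb from the lower-coordinate end of its gene (grey bar; Klf12 on its own axis). Point size and colour give the number of libraries with a peak and arrowheads the annotated start and direction where known. Regions in all 6 libraries lie over the start at 6 genes and over a gene end at Klf5 and Klf10.

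Of the 67 regions, 28 (41.8%) had a peak in all 6 libraries, against 37.3% of all regions, and 21 (31.3%) in 1 library only, against 30.2%. These shares lay close to the background. All 8 regions over a start (for Klf5 and Klf10, whose strand was not at hand, over a gene end) were among the 28, whereas 20 of the other 59 were (33.9%), among them the Klf12 region over the 5′ end of the gene body. Within 1 kb of an end of a protein-coding gene, 14 of 20 member regions (70.0%) and 64.9% of all such regions were in every library. Elsewhere it was 14 of 47 (29.8%) and 31.5%. Regions in 6 libraries were wide, at a median of 931.5 bp, and those in 1 library narrow, at 290.0 bp (799 and 262 bp over all regions). A merged region runs between the outermost ends of its peaks, so regions of more libraries are wider in part by construction.

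The protein-coding genes of the table had a median of 1 region shared by all libraries in the same window. Klf13 had 6, a number reached by 2.96% of the 21883 genes, Klf6 and Klf9 had 4 each (8.93%), Klf3 and Klf15 had 3 (17.7%), Klf4, Klf10 and Klf12 had 2 (35.3%), and Klf2 and Klf5 had 1 (62.4%). Long genes have wide windows. Per 10 kb of window Klf6 was the densest of the 10 at 1.38 shared regions, a density reached by 1.18% of genes, and Klf12, the longest at 420 kb, was the sparsest at 0.0455 (61.5%). The median of all coding genes was 0.194 and that of the 10 members 0.646.

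Klf2, Klf4, Klf5 and Klf6 are described first. Klf2, a flow-responsive factor best known from endothelium, lies on chromosome 8 at 72319062 to 72321654. The region over its start, from 72318582 to 72319470, had 65, 68 and 48 summit fragments with the NC label and 42, 65 and 50 with the siRNA label, in replicate order 1 to 3 here and below. The fold over local background was 7.64, 7.80 and 6.34 against 6.85, 9.31 and 7.45, and the −log10 q was 34.4, 36.5 and 22.0 against 20.7, 39.9 and 26.3. The groups overlapped in all 3 values, with siRNA-labelled library 1 lowest in fragments. On coverage-scaled fragments the means were 54.0 ± 7.52 and 57.6 ± 11.7 (SD, n = 3 each), a log2 difference of 0.083 (limma 95% interval -0.21 to 0.38). A weak region 678 bp past the gene, from 72322332 to 72322905, lacked a peak in siRNA-labelled library 2 only, and its folds were 2.87 to 3.48.

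Klf4, the factor of smooth muscle phenotype switching, lies on the minus strand of chromosome 4 at 55527137 to 55532475. Its start region, from 55532377 to 55534076, also covers the end of the long non-coding gene Gm12506. It held 58, 59 and 46 fragments (NC-labelled) against 29, 38 and 48 (siRNA-labelled), the order kept below, with folds of 5.28, 5.07 and 4.80 against 4.30, 5.38 and 5.72. The −log10 q was 22.0, 21.4 and 15.9 against 8.90, 14.9 and 19.9. Fragments were lowest in siRNA-labelled libraries 1 and 2, and library 3 overlapped the other group. The scaled difference was -0.22 on the log2 scale (limma 95% interval -0.53 to 0.086, adjusted p = 0.616 over all shared regions). Scaling by the background instead gave -0.126. The deposited folds, a ratio to local background, gave 0.015 for the same region, so the sign depended on the measure.

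The strongest Klf4 region by rank was not the start. It lay 8406 bp beyond the start side of the gene, from 55540881 to 55542127, at the end of the non-coding gene Gm34343 and inside Gm12506. Its folds of 10.5, 11.01 and 9.22 against 11.5, 10.5 and 12.5 had the highest median of the 28 shared regions. Fragments were 71, 69 and 52 against 58, 53 and 68, and −log10 q was 47.4, 47.7 and 32.4 against 41.7, 36.2 and 51.2. The groups overlapped, and the scaled log2 difference was 0.20 (limma adjusted p = 0.615). A further Klf4 region inside the gene, from 55531184 to 55531719, lacked a peak in NC-labelled library 1 only, at folds of 2.36 to 3.40.

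Klf5, a growth-promoting factor of smooth muscle, lies on chromosome 14 at 99298691 to 99313412 and had the fewest regions. The one over its lower-coordinate end, from 99298309 to 99299541, held 31, 42 and 33 fragments against 24, 32 and 31, with folds of 6.27, 8.16 and 6.73 against 6.98, 7.82 and 7.50. Its −log10 q was 14.7, 24.4 and 16.6 against 13.0, 18.4 and 17.3. NC-labelled library 2 was highest and siRNA-labelled library 1 lowest in fragments, and the scaled means were nearly equal at 31.7 ± 4.17 and 31.9 ± 2.94 (SD, n = 3 each; log2 interval -0.34 to 0.36). The only other Klf5 region was a peak of NC-labelled library 3 alone, from 99299850 to 99300086.

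Klf6, an injury-induced factor, lies on chromosome 13 at 5861489 to 5870393 and had 4 shared regions in a short window. Over the start, from 5860889 to 5861747, fragments were 86, 106 and 81 against 70, 92 and 89, folds 7.11, 8.52 and 7.03 against 8.51, 10.1 and 9.65, and −log10 q 42.2, 59.5 and 39.4 against 39.8, 58.5 and 55.0. The fold of NC-labelled library 2 was just above the lowest siRNA-labelled fold, so the groups overlapped. The scaled log2 difference was 0.17 (95% interval -0.064 to 0.41, limma adjusted p = 0.611). Just past the other end of the gene, the region from 5870458 to 5870882 held 37, 56 and 50 fragments against 29, 33 and 31. All siRNA-labelled values lay under all NC-labelled ones before scaling, a pattern of 30.5% of all shared regions. After scaling the groups overlapped, with a log2 difference of -0.30 (95% interval -0.63 to 0.034, adjusted p = 0.508).

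A further pair of Klf6 regions was in every library. The one from 5865985 to 5866581 inside the gene held 35 to 61 fragments, and the one from 5871269 to 5871935 behind it held 35 to 52. A peak of siRNA-labelled library 3 alone, from 5864281 to 5864517, had 41 fragments and stood at percentile 61.5 of its list by −log10 q. It was the highest-ranked of the 21 regions found in 1 library.

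**Figure D2:**
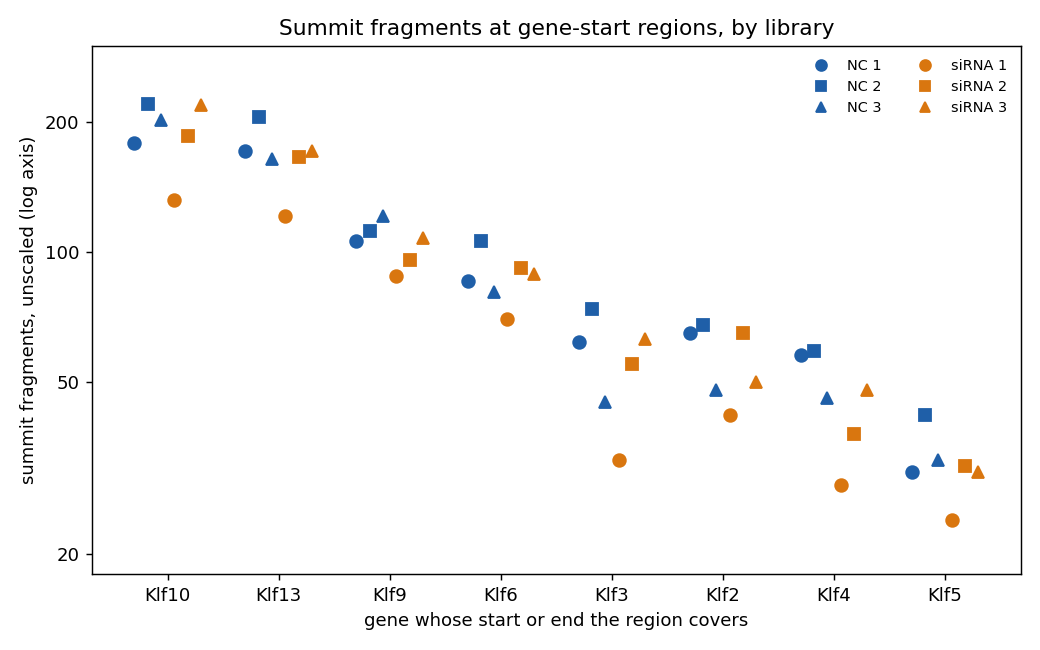
Summit fragments, not scaled for coverage (log axis), in each library at the 8 regions over a gene start (a gene end for Klf5 and Klf10). Values run from 132 to 220 at Klf10 down to 24 to 42 at Klf5, and blue (NC-labelled) and orange (siRNA-labelled) points overlap at every gene.

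Klf9, Klf10 and Klf13 recruit Sin3 corepressors. Klf10, a TGF-beta-induced early gene, lies on chromosome 15 at 38291464 to 38300711. The region over its higher-coordinate end, from 38300511 to 38301438, held 179, 220 and 202 against 132, 186 and 219 fragments. Its −log10 q was 90.0, 116 and 116 against 73.0, 112 and 131, at percentile 98.3 to 99.5 of the lists. The fold ranked lower than that, at 7.52, 8.05 and 9.04 against 8.50, 9.72 and 9.56 (percentile 69.3 to 84.1), at a local background of 14.7 to 26.4 fragments. The groups overlapped, and the scaled log2 difference was 0.11 (95% interval -0.083 to 0.30).

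A second Klf10 region lay inside the gene from 38299051 to 38300020. Its fragments were 110, 140 and 99 against 56, 75 and 110, its folds 4.60, 5.12 and 4.42 against 3.62, 3.92 and 4.79, and its −log10 q 35.4, 50.3 and 30.4 against 13.3, 19.9 and 36.9. siRNA-labelled libraries 1 and 2 were lowest and library 3 lay within the NC-labelled range. The scaled means were 104 ± 14.2 and 87.2 ± 22.2 (SD, n = 3 each), and the log2 difference of -0.28 had a raw p of 0.0344 and a limma adjusted p of 0.394. The non-coding gene Gm35248 overlaps both regions.

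Klf13, a factor first studied in lymphocytes and erythroid cells, lies on the minus strand of chromosome 7 at 63886351 to 63938915. Over its start, from 63938414 to 63939834, fragments were 171, 205 and 164 against 121, 166 and 171, with folds of 7.66, 8.64 and 8.23 against 8.28, 10.7 and 9.54. The −log10 q was 87.3, 114 and 88.5 against 65.8, 107 and 102. The region stood at percentile 97.9 to 99.2 in the 6 lists, and its log2 difference was 0.048 (95% interval -0.14 to 0.24). The other 5 shared regions were spread through the gene.

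Both Klf regions with the highest log2 differences were inside Klf13. The region from 63911514 to 63912724 held 27, 21 and 19 fragments against 27, 24 and 25, which scaled to 20.1 ± 3.59 and 28.1 ± 4.06 (SD, n = 3 each). Its folds were 6.34, 4.66 and 4.52 against 8.41, 6.92 and 6.35, which did not overlap by a narrow margin. The deposited folds gave a limma adjusted p of 0.619. After scaling, each siRNA-labelled library lay above each NC-labelled one. The log2 difference was 0.47 (95% interval 0.077 to 0.87) with a raw p of 0.0202 and a limma adjusted p of 0.326. The region from 63896719 to 63897809, which overlaps the non-coding gene Gm27252, held 32, 23 and 23 fragments against 27, 26 and 34. Its log2 difference was 0.44 (95% interval 0.068 to 0.82, limma raw p 0.0213 and adjusted p 0.333 over all shared regions). NC-labelled library 1 overlapped the other group there. The other shared regions inside Klf13 had differences of -0.15, 0.31 and -0.13 along the gene, so its regions did not share a sign.

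Klf9, a target of glucocorticoid receptor, lies on chromosome 19 at 23141226 to 23168129. Its start region, from 23140657 to 23141477, held 106, 112 and 121 fragments against 88, 96 and 108, with folds of 6.33, 6.97 and 7.63 against 7.89, 8.23 and 8.21. Its −log10 q was 46.8, 53.6 and 62.1 against 46.7, 52.5 and 58.8. Each siRNA-labelled fold lay above each NC-labelled one, as at the Klf6 region from 5871269 and the Klf13 region from 63911514. At the Klf13 region from 63887243 each lay below instead. How often either order held over all regions was not computed, so it is not read as a result. For the Klf9 start region the deposited folds gave a log2 difference of 0.22 (limma adjusted p = 0.779). The fragments of the groups overlapped, with NC-labelled library 3 highest and siRNA-labelled library 1 lowest, and the local background was 10.3 to 15.9 fragments. The scaled means of 102 ± 10.8 and 107 ± 2.30 (SD, n = 3 each) overlapped. A broad region 4677 bp before the gene, from 23133997 to 23136549 and at the non-coding gene 2410080I02Rik, held 130, 128 and 109 against 89, 87 and 109 fragments.

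**Figure D3:**
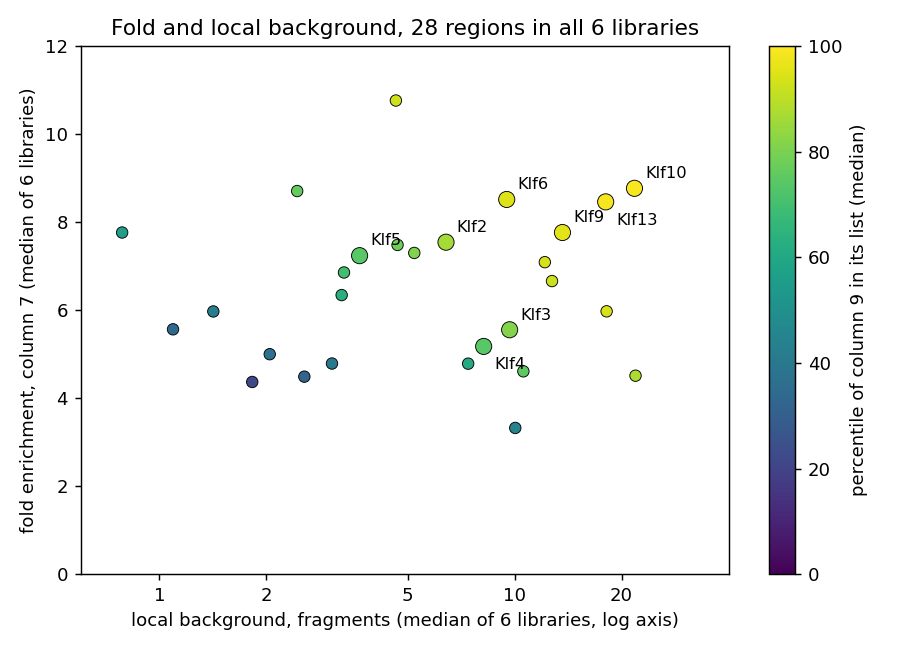
Fold enrichment (column 7) against solved local background, both as medians of 6 libraries, for the 28 regions in every library. Large points lie over a gene start (a gene end for Klf5 and Klf10), and colour is the percentile of −log10 q (column 9) in its list. Klf10 and Klf13 combine a high background with the highest ranks, and their median folds of 8.77 and 8.46 are among the higher ones shown.

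Klf3 and Klf12 recruit CtBP. Klf3 lies on chromosome 5 at 64803521 to 64832901 and shares its first part with the predicted coding gene Gm38457. Its start region, from 64802874 to 64803666, was the most variable of the 8 start regions in rank, at percentile 53.7 to 86.1. Fragments were 62, 74 and 45 against 33, 55 and 63, folds 5.36, 5.92 and 4.20 against 3.85, 5.74 and 6.15, and −log10 q 23.8, 31.1 and 13.3 against 8.63, 22.6 and 27.5. NC-labelled library 3 and siRNA-labelled library 1 were low, and the log2 difference was 0.012 (95% interval -0.30 to 0.32). Both shared regions inside the gene ranked higher than the start. The one from 64805909 to 64806694 held 106, 103 and 104 against 69, 89 and 85 fragments, and the one from 64811285 to 64812970 held 90, 109 and 88 against 73, 80 and 105.

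Klf12 lies on the minus strand of chromosome 14 at 99866181 to 100285891, and its promoter entry starts at 100149796, within that span. No library had a peak over it, and the nearest region, from 100147592 to 100147931, was a weak peak of NC-labelled library 2 and siRNA-labelled library 3. Of its 17 regions 2 were in every library and 8 in 1 library. The shared region from 100246969 to 100247931 held 19, 15 and 13 against 11, 10 and 12 fragments, with folds of 9.38, 8.32 and 7.20 against 7.64, 6.77 and 7.89 and −log10 q of 14.9, 11.6 and 9.06 against 9.07, 7.48 and 9.81. Its fragments did not overlap between the groups before scaling but did after it, at 14.1 ± 2.59 and 12.1 ± 1.21 (SD, n = 3 each). The other, from 100285736 to 100286670 over the higher-coordinate end with its median summit 226 bp beyond it, held 13, 13 and 16 against 11, 12 and 9 fragments. With so few fragments, counting error is large, and the 95% intervals ran from -0.65 to 0.28 and from -0.57 to 0.39.

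Klf15, which restrains smooth muscle remodelling, lies on chromosome 6 at 90461043 to 90491803 with its start at 90462576. The region nearest to that start, with its median summit 1221 bp past it, ran from 90463573 to 90464018, with 15, 19 and 15 against 15, 12 and 17 fragments and folds of 4.23, 4.74 and 4.02 against 5.00, 3.96 and 5.39. A region from 90466064 to 90466665 had the highest median rank of Klf15 but a peak in 4 libraries only, with 21 and 19 fragments in NC-labelled libraries 2 and 3 and 16 and 15 in siRNA-labelled libraries 1 and 2. The shared region from 90477034 to 90477498 held 13, 15 and 16 against 15, 9 and 12 fragments. No Klf15 region passed percentile 55.4 in any list. Klf15 was the one gene of the 10 with no peak in any library within 1 kb of either gene end, and the other 9 had one there in every library. This depends on the annotation. Measured from the start at 90462576 instead, the Klf15 region beginning at 90463573 comes within 1 kb.

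In the 6 start regions with known strand, the median summit lay before the start in each, at -108 bp (Klf3), -121 bp (Klf13), -129 bp (Klf2), -152 bp (Klf6), -282 bp (Klf9) and -475 bp (Klf4) from it. The summit of every library was on that side too. By the same rule, 53.5% of 8978 coding-gene starts with a region in all 6 libraries had the median summit before the start.

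**Figure D4:**
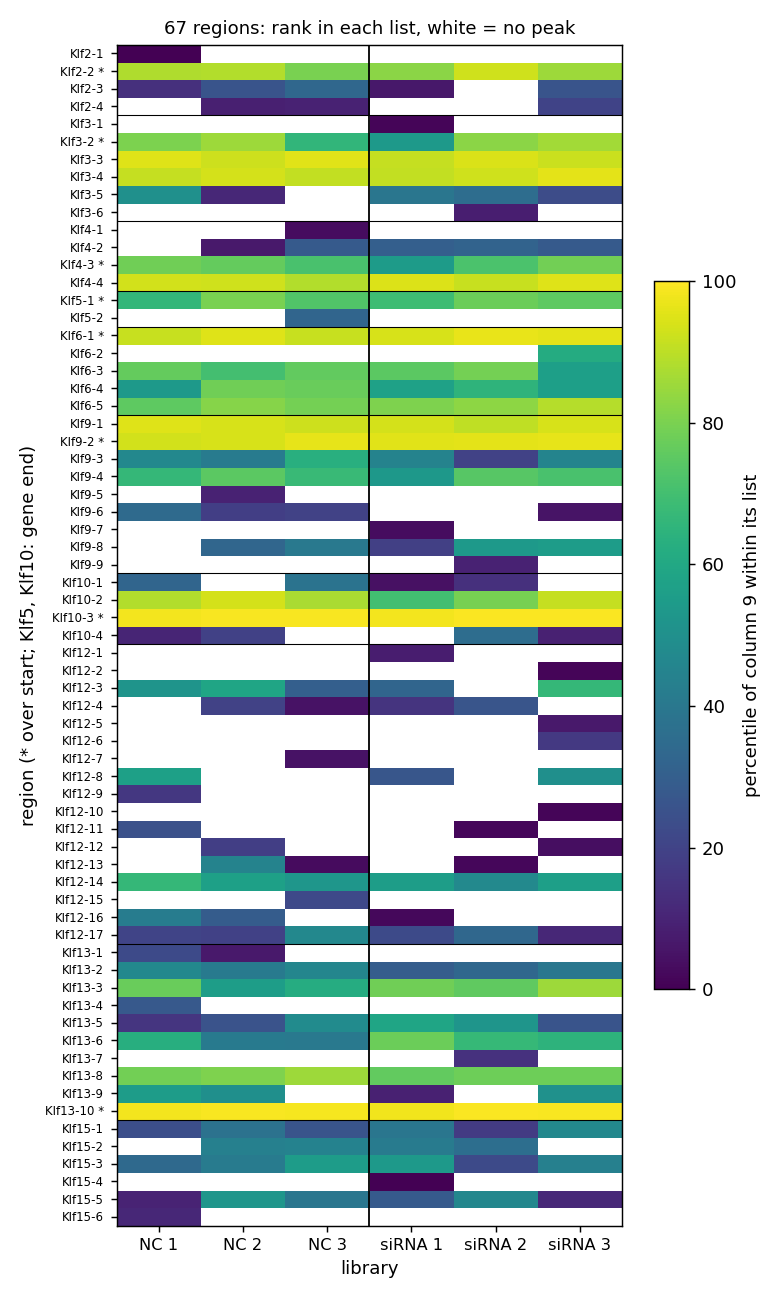
Percentile of −log10 q (column 9) within its own list for the 67 regions (rows, numbered along each gene) in the 6 libraries (columns). White cells have no peak, and starred regions, over a start (a gene end for Klf5 and Klf10), are filled in every column.

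The question the design poses is whether these peaks differed in libraries labelled as knockdown. No Klf region had a peak in all libraries of one group and none of the other, a pattern of 0.608% (NC-labelled only) and 0.342% (siRNA-labelled only) of all regions. Klf regions with a peak numbered 43, 44 and 42 (NC-labelled) against 43, 40 and 44 (siRNA-labelled). More NC-labelled than siRNA-labelled libraries had a peak at 16 regions and fewer at 16 (23.9% each). Over all 79295 regions it was 22051 (27.8%) and 19843. A difference of 2 libraries was found at 2 regions, both with more NC-labelled libraries (background 5.03%), and none had the reverse (3.43%). The region from 23162639 to 23163131 in Klf9 had 15, 12 and 11 fragments in the NC-labelled libraries and 8 in siRNA-labelled library 3. The region from 63876162 to 63876465 beside Klf13 had 9 and 7 in NC-labelled libraries 1 and 2. Both stood at or under percentile 34.5 of their lists. With 3 libraries against 3, no single region can reach an exact p under 0.1.

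Over all 10 windows, the number of peaks was 44.0 ± 1.00 with the NC label against 43.3 ± 1.53 with the siRNA label (SD, n = 3 each; two-sided exact permutation p = 0.8). When only peaks with a −log10 q of 5 or more were counted, the difference was -4.33 peaks (exact permutation p = 0.1, the smallest possible). For those peaks the share of each list differed by -0.0049 percentage points (exact permutation p = 0.3). With peaks of any q, the share of each list was 0.0895 ± 0.00322% against 0.0895 ± 0.00763% (exact permutation p = 1.0). The peaks covered 29.0, 30.1 and 28.03 kb against 26.8, 25.6 and 27.3 kb, with each siRNA-labelled value under each NC-labelled one (exact permutation p = 0.1, the smallest possible, adjusted p = 0.4 over the 4 measures). As a share of all covered bases the order turned, at 0.106 ± 0.00336% against 0.112 ± 0.00633% (exact permutation p = 0.2, adjusted p = 0.4). The lower covered length of the Klf windows thus went with the lower covered length of the lists, 22.5 to 25.4 Mb against 27.4 to 27.7 Mb.

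**Figure D5:**
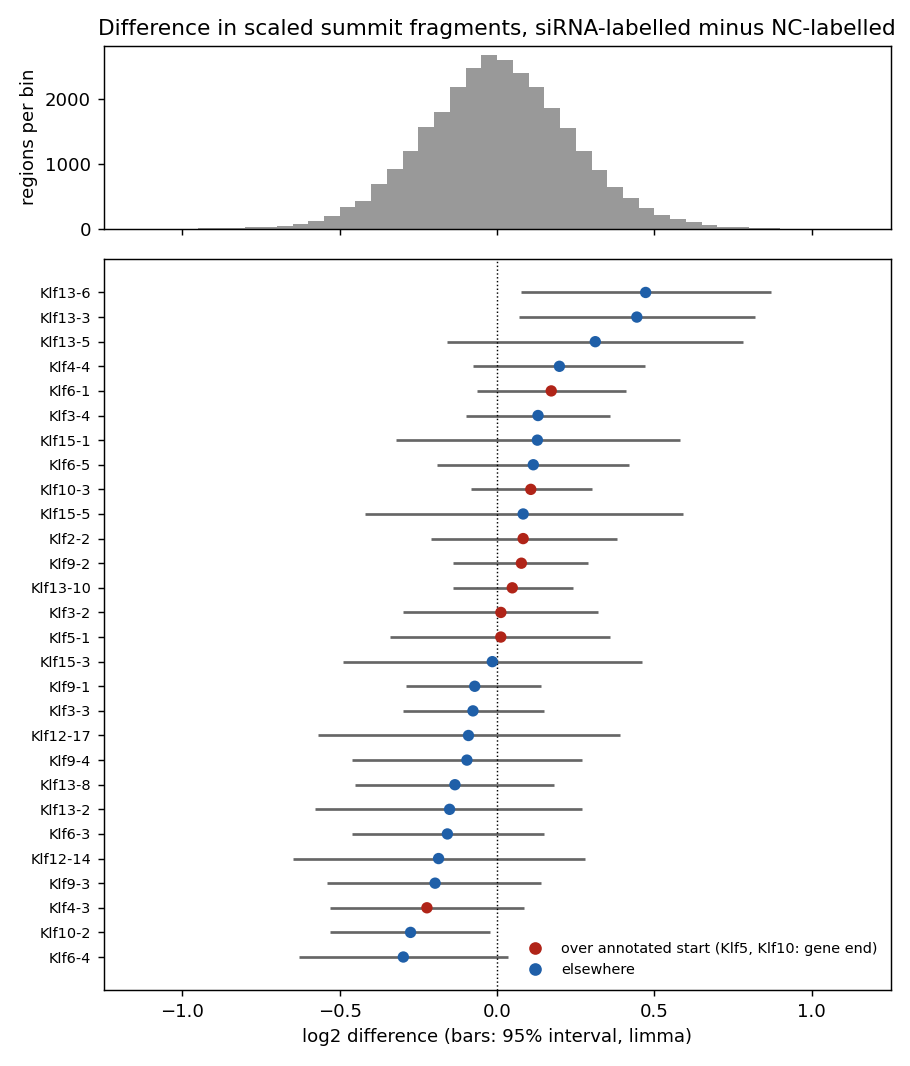
Log2 difference of scaled summit fragments, siRNA-labelled minus NC-labelled, for the 28 Klf regions in all libraries (points; bars are 95% intervals from limma), under the distribution over all 29602 shared regions. Points run from -0.30 to 0.47, and no region passed the adjusted threshold.

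Scaled summit fragments were compared by limma over the 29602 regions with a peak in all 6 libraries, and 0 of the 28 Klf regions passed an adjusted p of 0.05 (lowest 0.326), where 0.216% of all shared regions did. At an unadjusted p under 0.05 there were 2 higher and 1 lower, against 5.43% and 5.90% of all regions. Of all regions 27 (0.0912%) passed as higher and 37 (0.125%) as lower in the siRNA-labelled libraries, or 71 and 8 when scaled by the background instead. At such shares, 0 calls among 28 regions is near the background. The regions also had to have a peak in every library to be tested, which leaves out any that were lost in a group. Scaled values of the groups did not overlap at 1 Klf region, higher in the siRNA-labelled libraries (background 7.73%), and at 0 in the other direction (8.10%). Before scaling, 9 of the 28 had all siRNA-labelled values under all NC-labelled ones (background 30.5%). Of the 28 differences 15 were above 0 and 13 below (50.2% of all regions were below), with a median of 0.012, against -0.00087 over all regions. Scaling by the background moved the median over all regions to 0.0941 and that of the members to 0.108. The members then lay above 0 at 19 and below at 9, but above the median of all regions at 15 of 28. From the deposited folds 18 lay above 0 and 10 below, with 16 above the median of all regions.

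Other genes of the family and its partners were set beside the members. Among 7 further Klf genes 9 of 18 regions were in all libraries, none of the 9 passed limma in either direction, and Klf16 had the highest summit (204 to 283 fragments). Klf8 and Klf14 had no region and Klf17 only 1, in a single library. Among the 9 Sp genes, the zinc finger relatives that bind the GC box, 17 of 32 regions were in all libraries (53.1%) and none of the 17 passed. Sp1 held 308, 311 and 276 fragments against 179, 209 and 239 at its highest summit, lower in each siRNA-labelled library before scaling. The highest summits of Sp2 and Sp3 had the same order, which was that of 30.5% of all shared regions. It was not particular to the Sp genes, as Klf16, Sin3a and Mef2d, among others of these lists, also had it. After scaling, the lowest limma adjusted p was 0.21 among Sp1 regions, 0.39 for Sp2 and 0.18 for Sp3. Among regions of Smad3, a gene upstream of Klf expression, it was 0.12. Of 10 cofactor genes (CtBP, Sin3, histone deacetylase and acetyltransferase genes) 27 of 56 regions were in all libraries and of 12 genes upstream of Klf expression 38 of 85, with none of the 27 or 38 passing. One region near an upstream gene had a peak in the NC-labelled libraries only.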

How the data were processed

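Data were 6 CUT&Tag peak lists, 3 NC-labelled and 3 siRNA-labelled. Per the submitters' processing notes, the authors used Bowtie2, Picard and MACS2 with mm10. Tool versions were not given in the sources used here. Each library has a list of its own. Each deposited peak has a score, in column 7 a fold over local background (a ratio), and in columns 8 and 9 its p-value and q-value as −log10. These values are the authors' own and describe ranks within 1 list.

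From fold and p-value, with a pseudocount of 1, whole summit fragments and local background were solved for 100% of peaks (relative tolerance 0.002). Fragments were scaled to the median ratio over 29602 regions shared by all libraries and compared by limma 3.58.1 (R 4.3.3, trend) on log2(scaled fragments + 1), with Benjamini-Hochberg adjustment over those regions. Intervals (95%) are limma's. On simulated shared regions (29602), 65.5% of 200 planted 2-fold changes were recovered, and 94.9% of the 59 of at least 40 fragments. The simulated counts were Poisson with no added variation between libraries, so these shares do not give the recovery in the real libraries. Window sums were compared by two-sided exact permutation over 20 assignments, whose smallest p is 0.1. Union regions needed 1 bp of overlap. Genes came from the RefSeq table of GRCm38.p6, where all 72 members of the 9 lists matched.

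The members and lists were chosen with earlier results of these data known. Named regions follow a rule: those over a start, the highest by rank in each gene, those differing by 2 libraries or more and the 2 with the lowest raw p in each direction. Other regions shared by all libraries are given more briefly. siRNA-labelled libraries 2 and 3 differed by less than counting noise at 2226 regions with high summits (mean chi-square 0.766 per region). siRNA-labelled library 1 lay above 1 with both (1.38 and 1.30). With NC-labelled libraries 1 to 3 it gave 1.34, 1.56 and 1.19, so it was about as far from its own group as from the other. Libraries 2 and 3 were kept apart, since their labels name different siRNAs and NC-labelled pairs gave 0.799 to 0.901. Also, only 287 peak intervals were identical between libraries 2 and 3 (202 to 312 in other pairs). Counting them as 1 sample was an alternative, as were the scaling, pseudocount, filter, q threshold, window, overlap, replicate block and leaving out each library. Total reads and a genome sequence were not used here, so motifs were searched in promoter windows only.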

Additional observations from a re-analysis of the deposited data

How the results depend on the processing

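Under every alternative run, 0 of the Klf regions tested passed the adjusted limma threshold, with 0 to 4 at an unadjusted p under 0.05 (3 as reported). The count over all shared regions was 64. It was 146 with the replicate block, 32 with siRNA-labelled libraries 2 and 3 as 1 sample, 0 from the deposited folds (2184 at an unadjusted p under 0.05) and 12 to 381 leaving out 1 library, the highest without siRNA-labelled library 1 and the lowest without NC-labelled library 1 or 3. With a 50 kb flank 51 of 124 Klf regions were in all 6 libraries, against 28 of 67. With peaks of −log10 q of at least 5 it was 21, and leaving out 1 library gave 28 to 30. The difference in peak share, -2.35e-06 percentage points, was 0.00147 with a 50 kb flank, 0.00214 with libraries 2 and 3 as 1 sample and -0.00428 to 0.00304 leaving out 1 library. That in peak number, -0.667, was -1.50 to 0 leaving out 1 library. With peaks of −log10 q of at least 5, peak number differed by -4.33 (exact permutation p = 0.1, the smallest possible) and peak share by -0.0049 percentage points (exact permutation p = 0.3). With the replicate block, peak number differed by -0.667 with an exact permutation p of 0.75. Covered length differed by -2.49 kb with an exact permutation p of 0.25, the smallest possible when labels are exchanged only within replicate numbers. Same-numbered libraries did not deviate together (correlations 0.0416, 0.0332 and -0.0221), so the numbers were not taken as pairs.

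Of 209 values of 15 named regions, 197 kept their sign and 12 reversed, each with a limma adjusted p of 0.854 or more. From the deposited folds Klf4 (start) gave 0.015. Scaled by the background, Klf3 (from 64805909) gave 0.021. With libraries 2 and 3 as 1 sample, Klf3 (start) gave -0.0908 and Klf5 -0.0184. Leaving out 1 library, differences ran from -0.0746 to 0.163 at Klf2 (start), from -0.149 to 0.217 at Klf3 (start), from -0.0782 to 0.105 at Klf5 and from -0.0122 to 0.138 at Klf13 (start). Solved fragments limit precision: the standard errors of the 28 regions ran from 0.0939 to 0.253 on the log2 scale.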
